A study of Homo sapiens with 12 samples.

Results

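The 10 genes described here take up, store, release and sense iron in human cells, or carry it into mitochondria: TFRC, STEAP3, SLC11A2, FTH1, NCOA4, IREB2, ACO1, FBXL5, SLC25A28 and SLC25A37. They were chosen by name as a pathway, with earlier results of the screen known, and all 10 stand among the 19112 genes of a genome-wide CRISPR knockout screen, each with 4 guide RNAs. The screen was run with the Brunello library in HEK293 cells, a human embryonic kidney line, in DMEM with serum, glutamine, pyruvate, uridine and antibiotics. Cells were sampled on day 15 of growth with the ethanol solvent (EtOH), with 15 µM actinonin (ACT), with 5 µg/mL chloramphenicol (CAP) or with both drugs (ACT CAP). Each of the 4 conditions had 3 independent replicates, 12 samples in all. ACT makes mitochondria accumulate faulty translation products in their inner membrane, and CAP blocks the mitochondrial ribosome, so that its products are no longer made. The study asked which gene losses help or harm cells under either kind of stress, and subunits of the v-ATPase, the proton pump that acidifies endosomes and lysosomes, were among the genes it turned to.

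Most cultured cells obtain iron as transferrin, which binds its receptor at the surface and is drawn into endosomes. Acid in the endosome, made by the v-ATPase, frees the iron, which is then reduced and passed to the cytosol, while acid in the lysosome allows stored iron to be recovered from ferritin. Iron regulatory proteins sense the cytosolic pool and adjust the messages for uptake and storage, and mitochondria use much of the iron for haem and iron-sulfur clusters.

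What was measured is fitness and not expression. The deposited fit gives each gene a beta in each condition, the fitted change in the abundance of its guides, pooled over the 3 replicates and relative to an unnamed reference, together with its ratio to the standard error (SE), called z. A negative value means that guides against the gene were lost, but most genes are negative, so a value was read against other genes. As such a scale served the 374 olfactory receptors, genes a kidney line has no known need for, whose 5th percentile of z was -3.90 in EtOH, -4.00 with ACT, -3.74 with CAP and -3.40 with ACT CAP. Beta is the better measure for comparing genes with each other, because SEs differ between genes, and z depends on the SE as well as on the loss. Whether knockout was complete, and whether the cells kept the identity of the line, cannot be read from guide abundance.

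Loss of most of these iron genes left guide abundance within the range of the olfactory receptors. In EtOH 2 of the 10 genes had a z below the 5th percentile of the receptors, SLC25A28 and NCOA4. None did in ACT, FTH1 did in CAP, and SLC25A28 and NCOA4 did in ACT CAP. Of all genes, 13.8%, 9.33%, 10.5% and 13.6% lay below it in EtOH, ACT, CAP and ACT CAP. By beta, SLC25A28 and FTH1 lay below the receptors' 5th percentile in every condition, against 18.9%, 16.4%, 17.5% and 21.3% of all genes, and the other 8 lay between the 5th and 95th percentiles. The median z of the 10 genes was -2.62 in EtOH, -2.29 with ACT, -1.61 with CAP and -2.02 with ACT CAP, beside -2.03, -1.73, -1.78 and -1.70 over all genes. The median of the olfactory receptors was less negative than that of the 10 genes in each condition. It was -1.36 in EtOH, -1.43 with ACT, -1.44 with CAP and -1.18 with ACT CAP, and this gap was not tested. Ordered by beta, SLC25A28 came lowest in EtOH, ACT and ACT CAP and FTH1 in CAP, while IREB2 came highest in all but ACT CAP, where ACO1 did. Only SLC25A28 and its neighbour FTH1 in EtOH lay more than 2 joined SEs apart (2.86). No other neighbours in any of the 4 orders did, so adjacent places in the order are not resolved by these errors, though genes further apart can be.

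**Figure D1:**
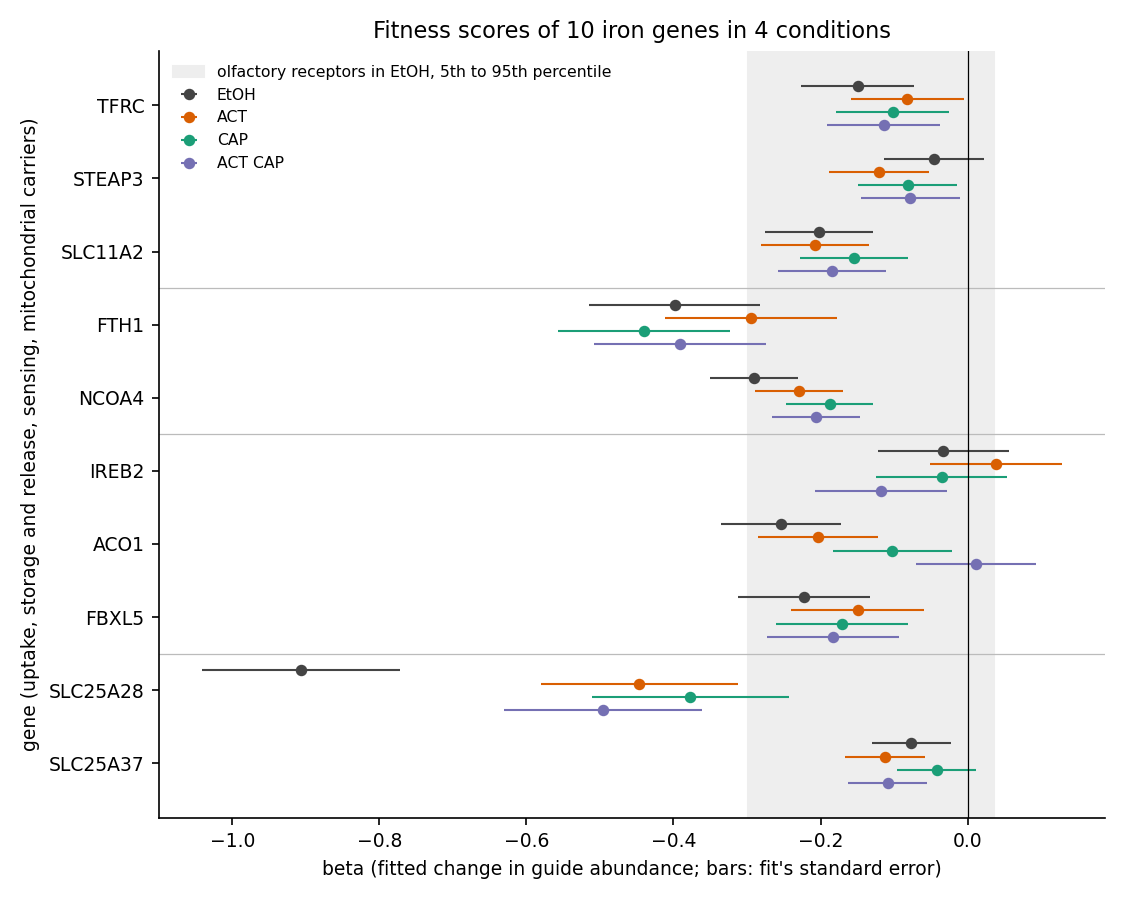
Beta (no unit) of the 10 iron genes on the horizontal axis, 1 row a gene and 1 point a condition, with bars of 1 SE of the fit and grey shading for the 5th to 95th percentile of 374 olfactory receptors in EtOH. SLC25A28 stands apart in EtOH at -0.907, and it alone lies left of the shading in all conditions. FTH1 lies left of the shading except in ACT, where its -0.295 falls just inside the lower end at -0.299. Against the receptors in ACT, which are not drawn (5th percentile -0.292), FTH1 lies below the range there too.

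Among the genes of uptake, none stood outside the receptors' range. TFRC encodes the transferrin receptor that most cells depend on for iron import. Its beta was -0.149 in EtOH, -0.0817 with ACT, -0.102 with CAP and -0.114 with ACT CAP, with an SE of 0.0768 in EtOH. Its z of -1.95, -1.06, -1.33 and -1.49 lay at the 52.1, 66.6, 62.7 and 55.8 percentile of all genes, that is at or above the middle of the table in every condition. The largest difference of TFRC from EtOH was in ACT, where beta was higher by 0.0677 with a 95% interval from -0.145 to 0.281, and a difference of 0.355 would have been needed to pass the test described below.

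STEAP3 encodes the endosomal reductase that turns ferric into ferrous iron after its release from transferrin. Its z was -0.676 in EtOH, -1.78 with ACT, -1.20 with CAP and -1.14 with ACT CAP, at the 82.8, 48.6, 66.1 and 65.5 percentile. It thus lay lower in each drug condition than in EtOH, by z differences of -1.10, -0.525 and -0.468, and none of these passed. SLC11A2 encodes DMT1, which moves ferrous iron across the endosomal membrane into the cytosol. Its z stayed between -2.83 in ACT and -2.11 in CAP, with -2.76 in EtOH and -2.51 in ACT CAP. That range of 0.714 was the smallest of the 10 genes. The successive steps of transferrin iron import, receptor, reductase and transporter, thus gave z differences from EtOH of -1.10 to 0.884, with no called change at any step.

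Storage and release are represented by FTH1 and NCOA4. FTH1 encodes the ferritin heavy chain, whose ferroxidase activity loads iron into the ferritin shell. Its beta was -0.398 in EtOH, -0.295 with ACT, -0.440 with CAP and -0.391 with ACT CAP, with an SE of 0.116 in EtOH that was larger than that of most genes (86.5 percentile). Its z was -3.43, -2.53, -3.77 and -3.34. By beta, FTH1 was more depleted in every condition than at least 95% of the olfactory receptors. In ACT the margin was small beside the SE of 0.116, with -0.295 against a 5th percentile of -0.292. By z, FTH1 lay below the receptors' 5th percentile only in CAP. Its highest beta, in ACT, exceeded that in EtOH by 0.104 (95% interval -0.218 to 0.426). RefSeq names 27 pseudogenes after FTH1 and 4 after NCOA4 and none after the other 8 genes. Whether guides also match these copies was not tested.

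NCOA4 encodes the receptor that carries ferritin to the lysosome, where its iron is freed. Its beta of -0.290 in EtOH, -0.230 with ACT, -0.188 with CAP and -0.206 with ACT CAP was less negative than that of FTH1 in each condition, though never by 2 joined SEs. Its SE was small (0.0595 in EtOH, 12.9 percentile), so its z of -4.88, -3.85, -3.15 and -3.46 came at the 6.26, 10.5, 18.4 and 12.9 percentile of all genes. NCOA4 had a higher z in each drug condition than in EtOH, by 1.02, 1.73 and 1.42. The highest of them, in CAP, had a Wald difference of 1.43 and did not pass. Subtracting the running median described below left 0.0101, 0.692 and 0.307.

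Of the iron sensors, ACO1 varied most between conditions. ACO1 and IREB2 encode the iron regulatory proteins, which bind iron-responsive elements in messages such as those of the transferrin receptor and ferritin. ACO1 is cytosolic aconitase when it holds an iron-sulfur cluster and binds RNA when it has lost it, whereas IREB2 is controlled by degradation. ACO1 had a beta of -0.254 in EtOH, -0.203 with ACT, -0.102 with CAP and 0.0113 with ACT CAP, with an SE of 0.0813 in EtOH. Its z of -3.12, -2.49, -1.26 and 0.139 ran from the 25.1 percentile in EtOH to the 92.0 percentile in ACT CAP. The values in the conditions with CAP were thus the higher ones, and its range of z, 3.26, was wider than that of 94.7% of genes. IREB2 gave a beta of -0.0328 in EtOH, 0.0386 with ACT, -0.0354 with CAP and -0.118 with ACT CAP, with an SE of 0.0895 in EtOH. Its highest value was in ACT and its lowest in ACT CAP, where ACO1 was highest.

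The gap between these paralogues therefore changed sign. Beta of ACO1 minus beta of IREB2 was -0.221 in EtOH (-1.83 joined SEs), -0.242 with ACT (-1.99), -0.0668 with CAP (-0.552) and 0.130 with ACT CAP (1.07). In no condition did the paralogues lie 2 joined SEs apart. The change of the gap from EtOH to ACT CAP was 0.351, or 2.05 joined SEs, without correction for the pairs and conditions looked at. FBXL5, the ubiquitin ligase subunit that holds iron and marks IREB2 for degradation when iron is plentiful, had a beta of -0.223, -0.150, -0.170 and -0.183 in the same order of conditions. Its z, from -2.48 in EtOH to -1.66 in ACT, had a range of 0.817 (15.2 percentile), one of the narrower among the 10 genes.

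SLC25A28, which encodes mitoferrin 2, the carrier that brings iron into mitochondria in most tissues, had the widest range of the 10 genes and, except in CAP, the lowest beta. Its beta was -0.907 in EtOH, -0.446 with ACT, -0.377 with CAP and -0.496 with ACT CAP, with an SE of 0.135 in EtOH that was among the larger ones (91.4 percentile). Its z was -6.73 in EtOH, at the 1.13 percentile of all genes, and -3.33 with ACT, -2.82 with CAP and -3.69 with ACT CAP, at the 16.7, 24.2 and 10.1 percentile. Its lowest value was thus that in EtOH, and the values in the 3 drug conditions were close to each other. Between the drug conditions its z differed by 0.363 (ACT minus ACT CAP), -0.870 (ACT CAP minus CAP) and -0.508 (ACT minus CAP). The range over the 4 conditions, 3.92, was wider than that of 97.4% of genes.

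SLC25A37 encodes mitoferrin 1, the carrier known best from developing red cells. Its beta was -0.0765 in EtOH, -0.112 with ACT, -0.0421 with CAP and -0.108 with ACT CAP, and its z of -1.42, -2.08, -0.780 and -2.01 lay at the 66.0, 41.4, 76.7 and 41.4 percentile of all genes. The mitoferrins lay more than 2 joined SEs apart in every condition. Beta of SLC25A28 minus beta of SLC25A37 was -0.830 in EtOH (-5.72 joined SEs), -0.334 with ACT (-2.31), -0.335 with CAP (-2.32) and -0.387 with ACT CAP (-2.67). Against EtOH the gap was narrower by 0.496 with ACT, 0.495 with CAP and 0.443 with ACT CAP, which is 2.42, 2.42 and 2.16 joined SEs. These changes were not corrected for the number looked at, and all rest on the same EtOH values.

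Conditions were then compared gene by gene, in all 6 pairs. A size rule calls a z difference of 3 or more, or of -3 or less. The study gives a cut of this size for its pathway analysis of ACT against ACT CAP, and its use for the other pairs is a choice made here. Because that rule has no error rate, each beta difference was also divided by its joined SE, centred and scaled on all 19112 genes, and tested against a normal distribution with Benjamini-Hochberg adjustment over all genes at 0.05. This scaled quantity, the Wald difference, is printed for single genes without its p, which is approximate with 3 replicates pooled in the fit. The printed SEs and 95% intervals of beta differences are neither centred nor scaled. They are therefore not those of this test, and an interval can include 0 where the unadjusted p is under 0.05. The comparisons with EtOH share its values and are not independent of each other.

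None of the 10 iron genes passed the Wald test in any of the 6 pairs. From EtOH to ACT, 0 of 10 passed, beside 1.23% of all genes, and 1 of 10, SLC25A28, was at an unadjusted p under 0.05, beside 7.74%. SLC25A28 also was the only gene of the 10 past the size rule, which 4.79% of all genes met. Its beta was higher by 0.460 in ACT (SE 0.190, 95% interval 0.0877 to 0.833), its z by 3.41 and its Wald difference was 2.48, where 3.43 was the smallest that passed. The median z difference of the 10 genes was 0.807, beside 0.317 over all genes.

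From EtOH to CAP, again 0 of 10 passed, beside 0.251% of all genes. SLC25A28 came closest of any comparison. Its beta was higher by 0.530 (SE 0.190, 95% interval 0.158 to 0.902) and its z by 3.92, which is at the 99.7 percentile of all z differences. The Wald difference of 3.63 fell short of 3.85, the smallest that passed, and a beta difference of 0.561 would have been needed. It was the single gene of the 10 at an unadjusted p under 0.05, beside 6.84% of all genes, and the single gene past the size rule, beside 1.31%. ACO1 gave a z difference of 1.86 and a Wald difference of 1.56.

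From EtOH to ACT CAP, 0 of 10 passed, beside 0.277% of all genes. Both SLC25A28 and ACO1 were at an unadjusted p under 0.05, beside 6.76% of all genes, and past the size rule, beside 1.46%. For SLC25A28 beta was higher by 0.411 (SE 0.190, 95% interval 0.0384 to 0.784), with a z difference of 3.05 and a Wald difference of 2.68. For ACO1 it was higher by 0.265 (SE 0.115, 95% interval 0.0397 to 0.490), with a z difference of 3.26 at the 99.2 percentile and a Wald difference of 2.88. The smallest Wald difference that passed was 3.82. Once the median z of every condition was set to 0, neither met the size rule (2.72 for SLC25A28 and 2.93 for ACO1). IREB2 lay on the other side, with a z difference of -0.950.

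**Figure D2:**
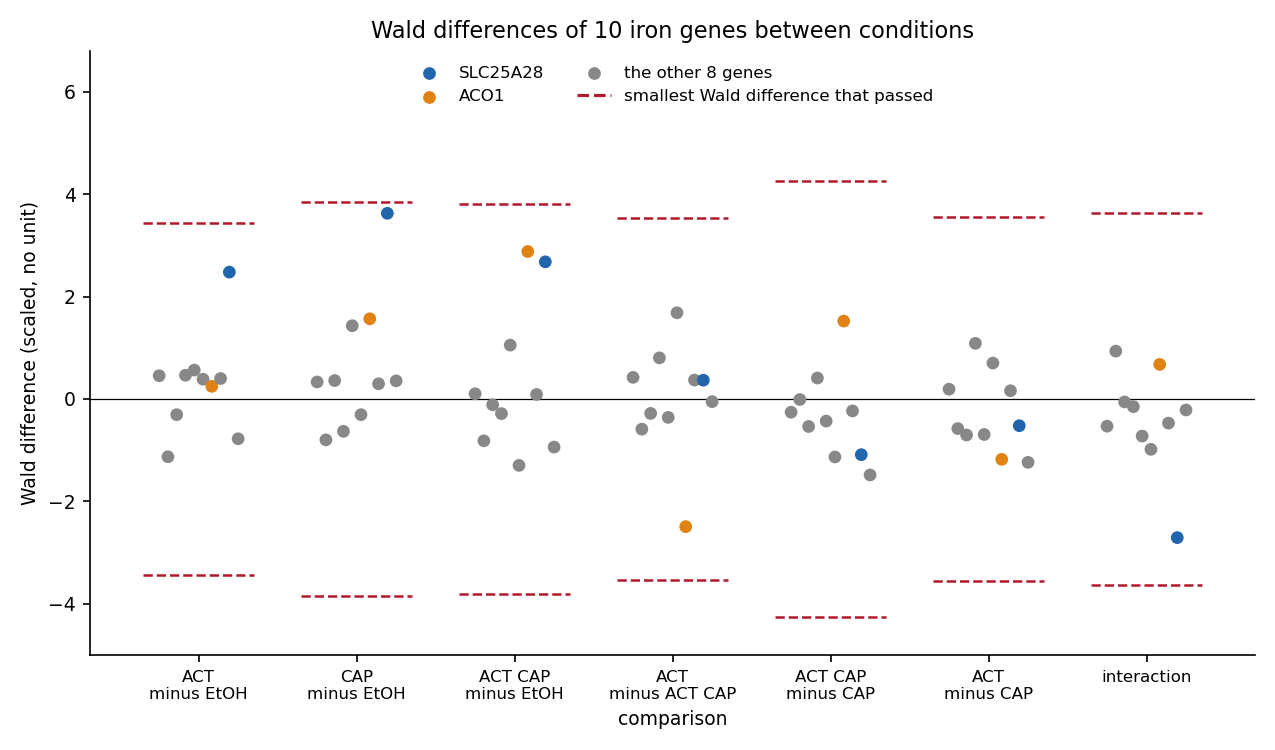
Wald difference (no unit) of each of the 10 iron genes on the vertical axis for the 6 pairs of conditions and the interaction of ACT and CAP, 1 point a gene, with dashed red lines at the smallest Wald difference of any gene that passed. No point lies beyond the lines, and SLC25A28 in CAP minus EtOH, at 3.63 beside 3.85, lies nearest.

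These differences varied with the level in EtOH. Genes with a low z in EtOH tended to lie higher in the drug conditions, so a running median of the z difference over neighbouring genes in the order of their z in EtOH was subtracted. What remained for SLC25A28 was 1.64 with ACT, 2.15 with CAP and 1.45 with ACT CAP. At its place near the low end of the order this running median is flat. For ACO1, which started nearer the middle, 2.56 of its 3.26 remained in ACT CAP. No gene of the 10 met the size rule after this step.

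**Figure D3:**
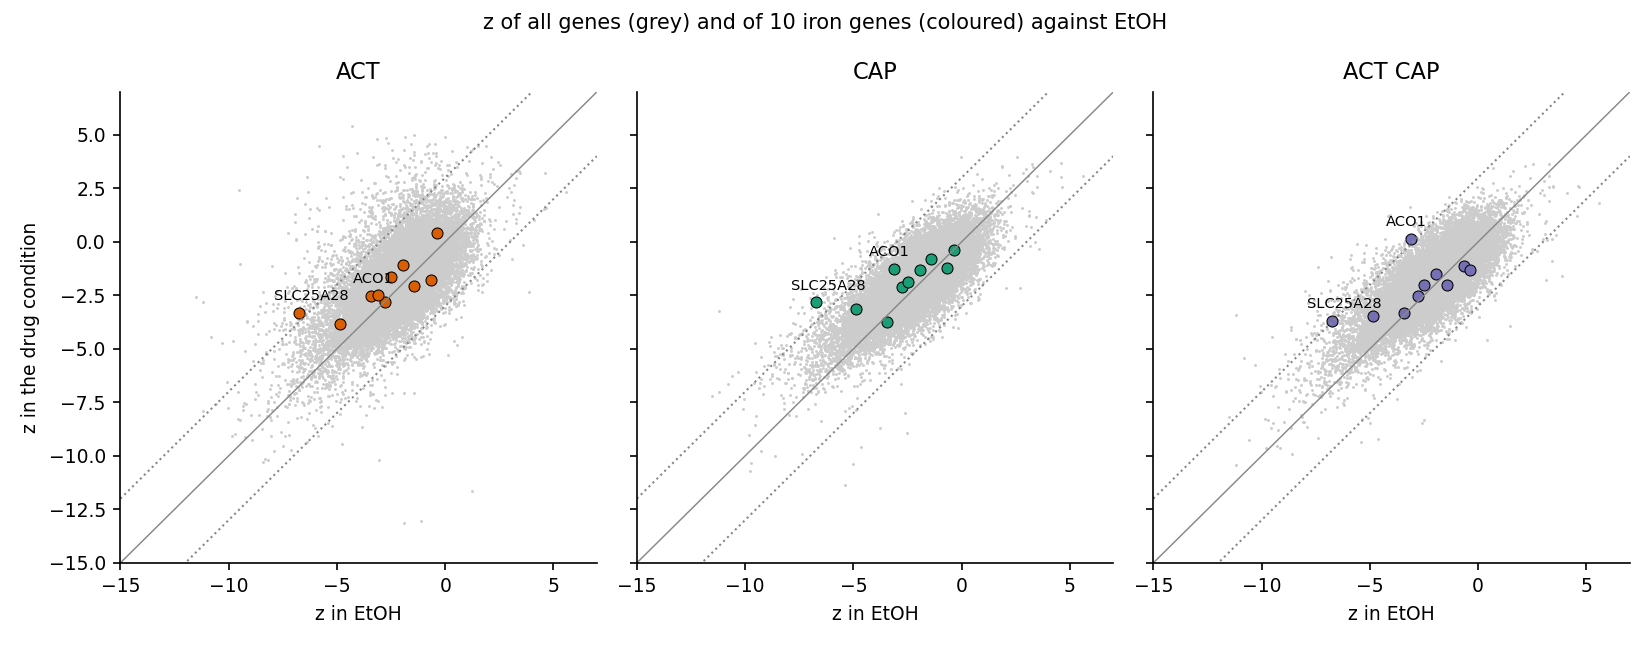
z (no unit) in ACT, CAP and ACT CAP on the vertical axes against z in EtOH, for all 19112 genes (grey) and the 10 iron genes (coloured), with a solid line where both are equal and dotted lines at differences of 3 and -3. SLC25A28 lies above the upper dotted line in each panel, at differences of 3.41, 3.92 and 3.05, and ACO1 only in ACT CAP, at 3.26.

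Between the drug conditions none of the 10 iron genes met the size rule in any of the 3 pairs. From ACT CAP to ACT, 0 of 10 passed, beside 0.821% of all genes, and 0 met the size rule, beside 1.92%. ACO1 alone was at an unadjusted p under 0.05, beside 7.54% of all genes. Its beta in ACT was below that in ACT CAP by a difference of -0.214 (SE 0.115, 95% interval -0.440 to 0.0112), with a z difference of -2.63 and a Wald difference of -2.49. The interval, which is neither centred nor scaled, includes 0, and without these steps the Wald difference was -1.86. IREB2 gave the largest value in the other direction, a z difference of 1.75 and a Wald difference of 1.68. Thus the iron regulatory proteins had values of opposite sign in this pair, and neither passed.

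From CAP to ACT CAP, 0 of 10 passed, beside 0.0471% of all genes, 0 were at an unadjusted p under 0.05, beside 6.21%, and 0 met the size rule, beside 0.246%. The Wald differences ran from -1.49 for SLC25A37 to 1.52 for ACO1. Likewise, in ACT minus CAP 0 of 10 passed (0.759% of all genes), 0 were at an unadjusted p under 0.05 (7.5%) and 0 met the size rule (2.41%), with Wald differences from -1.24 for SLC25A37 to 1.09 for FTH1.

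The interaction asks whether the change in beta from CAP to ACT CAP differs from that from EtOH to ACT. It passed for 0 of 10 iron genes and for 0.612% of all genes. SLC25A28 was the gene of the 10 at an unadjusted p under 0.05, beside 7.24% of all genes. Its interaction in beta was -0.579 (SE 0.269, 95% interval -1.11 to -0.0527) and its Wald difference -2.71, where 3.63 in size was needed. It sets a change of -0.119 from CAP to ACT CAP against one of 0.460 from EtOH to ACT. It therefore rests on the same low EtOH value as the comparisons with EtOH. The running median over the level in EtOH was not subtracted from the interaction. ACO1 gave 0.674, and the other 8 genes lay between -0.985 for IREB2 and 0.934 for STEAP3. For the 8 genes other than SLC25A28 and ACO1, every Wald difference in the 6 pairs lay between -1.49 and 1.68.

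For comparison, 66 other genes of iron handling were counted in 5 lists, together with 16 core subunits of the v-ATPase. Of the 66 iron genes, 1 passed the Wald test in any comparison. This was NUBPL, an assembly factor that delivers iron-sulfur clusters to respiratory complex I, whose z was -3.78 in EtOH. It was lower in ACT than in CAP (z difference -5.95, Wald difference -5.49) and lower in ACT than in ACT CAP (-3.90 and -3.71). The latter call was lost with a standard normal null (-2.77), without scaling (-2.75) and at an adjusted p of 0.01.

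None of the 14 other uptake genes, 12 genes of iron chaperones, storage, ferritin turnover and export, 12 genes of cytosolic iron-sulfur assembly and of the FBXL5 ligase, or 12 genes of haem synthesis and breakdown passed in any comparison. Their median z differences from EtOH in ACT, CAP and ACT CAP were 0.795, -0.401 and 0.545 for uptake, and 0.318, 0.465 and 0.288 for chaperones and storage. For the cytosolic list they were 0.361, 0.648 and 0.688, for haem -0.796, 0.708 and 0.359, and for the 16 genes of mitochondrial iron-sulfur assembly -0.219, 0.557 and 0.414. Of the iron lists, those with assembly genes were the most depleted in EtOH. The median z was -4.30 for the cytosolic and -3.97 for the mitochondrial list, against -2.62 for the 10 genes described above. The cytosolic median includes the genes of the FBXL5 ligase, SKP1 (-2.29), CUL1 (-4.10) and RBX1 (-2.17), which all lay above it. Of the 66 genes, 8 met the size rule from EtOH to ACT (5 higher and 3 lower), beside the 4.79% of all genes given above, and none of the 8 passed the Wald test in that comparison. The 8 are named here after their values were seen. SNX3, a sorting nexin that returns the transferrin receptor to the surface, was higher by 4.07 in z in ACT than in EtOH. HMOX2, a haem oxygenase, was higher by 4.37, and FECH, the ferrochelatase that inserts iron into haem, was lower, with a difference of -3.04. Of the assembly genes, GLRX5 (3.55), ISCA2 (3.36) and CIAPIN1 (3.46) had positive differences, whereas NFU1 (-3.03) and NUBPL (-3.04) had negative ones. The differences of these 8 are given without subtraction of the running median. GLRX5 and ISCA2 started low in EtOH, at a z of -7.68 and -7.48, and HMOX2 higher, at -2.66. For SLC25A28, at -6.73 in EtOH, that subtraction took the difference in ACT from 3.41 to 1.64. None of the 66 met the size rule from EtOH to CAP, from EtOH to ACT CAP or from CAP to ACT CAP, and 5 did in ACT minus ACT CAP as well as 5 in ACT minus CAP.

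More of the v-ATPase subunits than of the iron genes passed in the same comparisons. Of the 16, 9 rose with ACT, 1 with CAP and 2 with ACT CAP against EtOH, and 6 had a negative interaction that passed. Their median z difference from EtOH was 4.82 with ACT, 2.80 with CAP and 2.39 with ACT CAP, beside 0.807, 0.629 and 0.348 for the 10 iron genes. These medians are without subtraction of the running median, and the lists started at unlike levels. The median z in EtOH was -5.87 for the v-ATPase subunits and -2.62 for the 10 iron genes. ATP6AP1, an accessory subunit needed for assembly of the pump, rose by 8.88 in z in ACT (Wald difference 6.86), and ATP6V1A, the catalytic subunit of the pump, by 8.43 (Wald difference 6.50). Subtracting the running median left 7.11 with ACT, 2.68 with CAP and 3.02 with ACT CAP for ATP6AP1. For ATP6V1A it left 6.67, 1.64 and 0.683. The other 7 that rose in ACT were ATP6AP2, ATP6V0B, ATP6V0C, ATP6V1B2, ATP6V1C1, ATP6V1F and ATP6V1G1, and the direct import steps TFRC, STEAP3 and SLC11A2 gave 0.884, -1.10 and -0.0660 in that comparison. The difference between the lists was not tested.

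**Figure D4:**
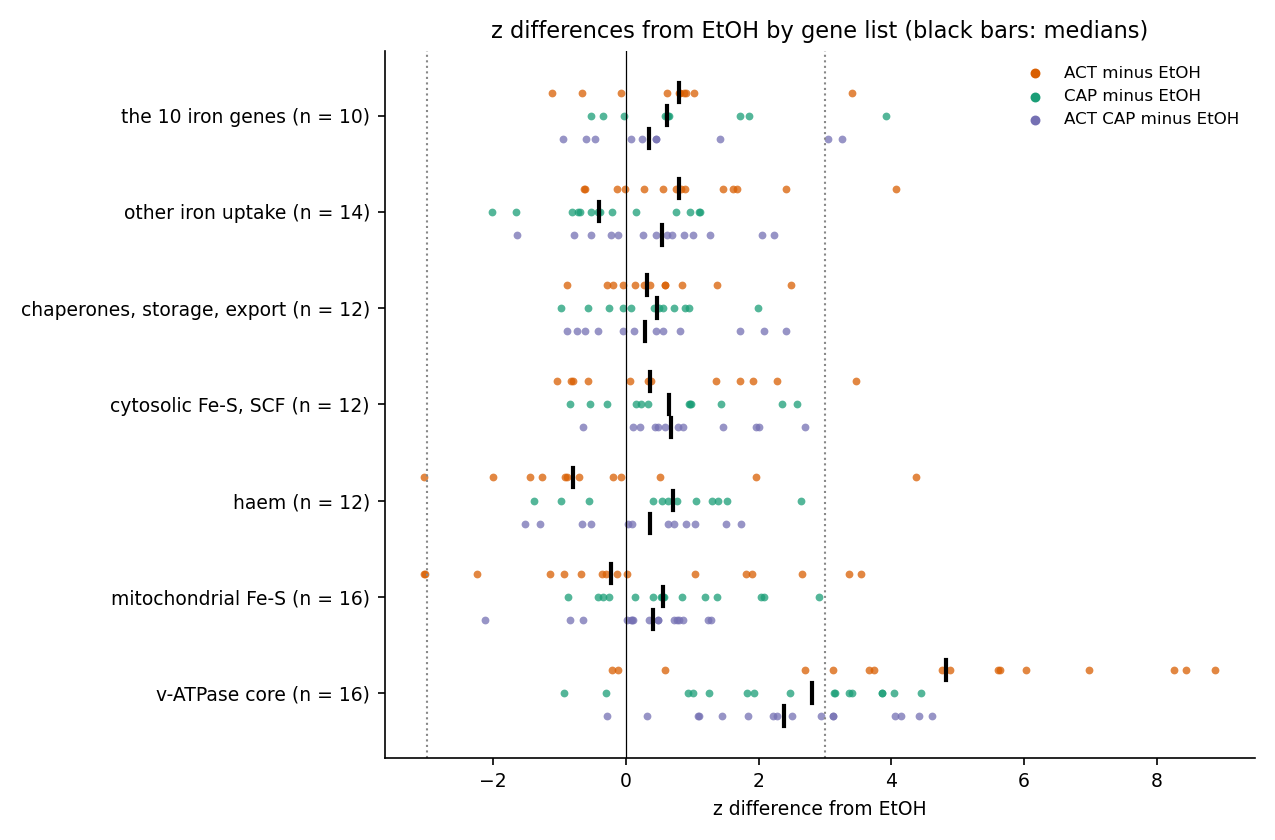
z difference from EtOH (no unit) on the horizontal axis for each gene of the 10 iron genes, 5 further iron lists and the v-ATPase core, 1 point a gene, with black bars at the medians and dotted lines at 3 and -3. The v-ATPase median in ACT is 4.82, whereas the medians of the iron lists lie between -0.796 and 0.807.

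Finally, the genes whose pattern was most like those of the 3 iron genes with the widest range were looked up by Euclidean distance over the 4 z values. For SLC25A28 they were PEX10 (distance 0.815), RNASEK (0.817) and HIST1H1E (0.837), and 6 genes of the table lay within a distance of 1. For ACO1 they were DEFB119 (0.323), TRIM4 (0.399) and LGALS14 (0.481), with 29 within that distance. IREB2 was closest to CPA3 (0.356), GUCA1B (0.371) and FAM86B2 (0.399), and 278 genes lay within 1. These numbers depend on how many genes share the levels themselves: few genes lie as low as SLC25A28 in EtOH.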

How the data were processed

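The authors' reads were processed in a single batch and analysed with MAGeCK, whose version is not given. The authors deposited 1 table with a beta score and a z score per gene and condition, fitted over guides and the 3 replicates, and permutation and Wald p-values with FDRs. The Wald p-value of the authors' fit was used only to restore z; the other p-value and FDR columns were not used. The methods describe averaged z-scored guide fold changes, whereas the deposited z score is an output of the fit. Of 76448 deposited z scores, 1146 stood as spreadsheet dates and were restored from the sign of beta and the deposited Wald p-value, a step within 0.00102 on intact scores. In 1 further cell a beta stood as a date and was restored from z and the SE. None of the 40 z scores of the 10 iron genes was restored. Samples were grouped by their deposited treatment labels. Depth per sample was not analysed here (the paper's methods give averages per replicate), and precision is that of the SE, taken as beta divided by z, whose ratio to EtOH ran from 0.996 to 1.01 (1st to 99th percentile).

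Differences in beta over joined SEs were centred on the median and scaled by 1.4826 times the median absolute deviation of all genes, with a 2-sided normal p and Benjamini-Hochberg adjustment. The 10 genes and all lists were chosen with earlier results of these data known. Named genes were all 10, every gene of the other lists that passed (if over 12, the 12 with the largest Wald difference), and the 3 nearest by z to each of the 3 with the widest range, plus those said to be chosen after their values were seen. All 10 symbols, and no coordinates, were matched to RefSeq (GRCh38.p14). The centring, scaling and adjusted test of the Wald difference were tried on simulated Wald values with known shifts. The z difference and running median steps were not tested on simulated data. Alternatives were z centred or scaled, a z difference of 4, running medians of 501 genes, other nulls, an adjusted p of 0.01, genes with exactly 4 guides and restored z left out. The software was Python 3.11.15 with scipy 1.17.1, pandas 2.3.3, numpy 2.4.6 and, for plots, matplotlib 3.10.9.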

Additional observations from a re-analysis of the deposited data

How the results depend on the processing

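The count of iron genes that passed the Wald test was 0 in all 33 combinations of comparison and alternative run. Those at an adjusted p of 0.01 could not have added a call to a main count of 0. Nor could those without scaling, because the spread divided by is below 1 in every comparison (0.618 to 0.888). The standard normal null also leaves out the scaling, and took the Wald difference of SLC25A28 in CAP minus EtOH from 3.63 to 2.79. Genes with exactly 4 guides are 19103 of the 19112, and under that alternative this value stayed at 3.63. These alternatives therefore bear little on whether the count is stable. What remains is removal of the running median over beta, run in the 6 pairs, which left this value at 3.19 and the count at 0. Counts by the size rule did move. With a z difference of 4, with z centred and scaled in each condition, or after removal of the running median over the z of EtOH, the number of the 10 genes past the rule was 0 with ACT, 0 with CAP and 0 with ACT CAP against EtOH, instead of 1, 1 and 2. With z only centred on its median it was 0 in ACT CAP and kept its value in ACT and CAP. A cut of 4 could not have kept any of these calls, because the largest z difference was 3.92. Scaling took that difference, of SLC25A28 in CAP minus EtOH, from 3.66 when only centred to 2.33, while the cut stayed at 3. The counts under these alternatives therefore do not bear on whether the calls are stable. Against EtOH the Wald differences of SLC25A28 and ACO1 kept their sign under each alternative, but the z difference of ACO1 from EtOH to ACT, 0.629, became -0.0081 after removal of the running median. The Wald difference of SLC25A28 in CAP minus EtOH ran from 2.59 without scaling to 3.63. No paired analysis was possible because the deposited values are pooled over the replicates of each condition, and for the same reason no replicate could be left out. Precision is limited by the SE of 4 guides a gene: a beta difference under 0.355 for TFRC and under 0.622 for SLC25A28 in ACT minus EtOH could not have passed upwards.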
